A study of Arabidopsis thaliana with 17 samples.

Results

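The beta-tubulin family of Arabidopsis thaliana holds 9 genes, TUB1 to TUB9, and all 9 were taken by their locus identifiers from the 37336 features of the deposited tables. The gene table used for names gives each of the 9 identifiers the matching TUB symbol. The family was chosen by its normalized counts in the bamboo line against Col-0-b, so its values in that comparison are given as a description, with no test. The study examines the lncRNA BAMBOO and NF-YA2, one of the A subunits of NF-Y, a transcription factor that binds CCAAT boxes. Whole roots of 14-day-old plants, all labelled as mock-treated, gave the 8 RNA-seq libraries used: 3 of the wild type Col-0, 3 of a second wild-type set called Col-0-b, and 2 of bamboo, which the labels number 2 and 3. The design text speaks of a bamboo mutant, but the table is named with KD. The sources used here do not say how BAMBOO was altered, how many plants went into a library or whether replicates were grown apart. The wild-type columns beside bamboo are named only WT and were taken as Col-0-b, and those named col as Col-0, so every value set between the wild-type sets rests on that reading. P-values therefore measure the spread between these libraries, which may be technical. The HA-NF-YA2 root libraries and the seedling immunoprecipitation libraries were not analysed here.

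Beta-tubulin pairs with alpha-tubulin to form the dimer from which microtubules are built, and beta-tubulin is the partner that exchanges and hydrolyses its bound GTP. In plant cells, microtubules under the plasma membrane guide the enzyme complexes that lay down cellulose and so bear on the direction of cell growth, while the preprophase band, the spindle and the phragmoplast are microtubule arrays of dividing cells. In roots these arrays serve cell division in the meristem, elongation above it and the growth of root hairs. Newly made tubulin is folded with the help of prefoldin, a ring-shaped chaperonin and tubulin-folding cofactors, and gamma-tubulin complexes start new microtubules.

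Depth ran from 13637179 to 24333119 reads a library, and each beta-tubulin gene was covered by 814 to 10384 reads. Bamboo and Col-0-b values are normalized counts, that is, counts that the authors scaled by library size factors. Where Col-0 is set beside them, all 3 groups are given in CPM, a gene's reads scaled to the total reads of its library, because Col-0 came in a separate table. Of the 10 root markers all were detected, with summed levels of 510 to 557 CPM in Col-0, 522 to 550 in Col-0-b and 500 to 524 in bamboo. The 9 shoot markers summed to 82.9 to 111, 106 to 214 and 136 to 143 CPM. The 214 was Col-0-b replicate 1 alone, with replicates 2 and 3 of that set at 122 and 106. On the first principal component of the bamboo and Col-0-b libraries, with 44.7% of the variance, the position of bamboo replicate 2 was 34.7, that of Col-0-b replicate 3 was -21.9, and the other 3 libraries lay between -10.8 and 6.45.

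The 9 beta-tubulin genes together took 39283, 38720 and 42255 normalized counts in Col-0-b replicates 1, 2 and 3, and 35120 and 36342 in bamboo replicates 2 and 3. Both bamboo libraries lay below all 3 of Col-0-b, and Col-0-b replicate 3 was the highest. The means were 40086 ± 1899 (SD, n = 3) in Col-0-b and 35731 ± 865 (SD, n = 2) in bamboo, which was 10.9% lower, a log2 difference of -0.17. In bulk roots, fewer cells with many microtubules and less tubulin RNA in each cell cannot be told apart.

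All 9 genes had a negative log2 fold change in bamboo, from -0.06 to -0.29 with a median of -0.20, where 50.1% of the 20274 genes tested had a negative one. For 8 of the 9 both bamboo libraries lay below all Col-0-b libraries, which was so for 17.5% of all tested genes. In CPM this held for 7 genes, against 17.2% of all tested genes. Because this contrast led to the choice of the family, these counts describe it and support nothing.

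**Figure D1:**
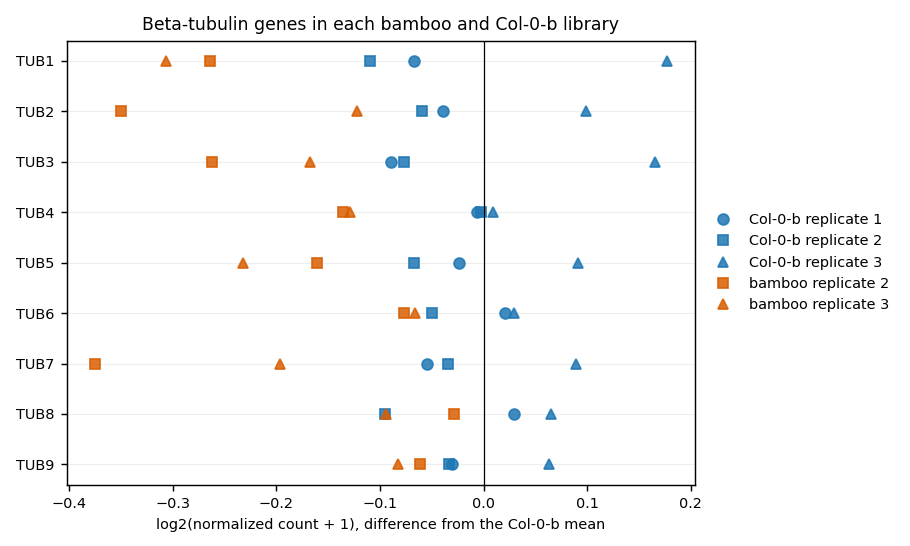
Each row is a beta-tubulin gene and each point a library; the horizontal axis is log2(normalized count + 1) as a difference from the mean of the 3 Col-0-b libraries. Col-0-b replicate 3 lies farthest right in all 9 rows, and the bamboo points lie left of all Col-0-b points in each row except TUB8.

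Col-0-b replicate 3 was the highest Col-0-b library for all 9 genes. The median distance of the family from the Col-0-b mean was 0.09 in that library, -0.03 in Col-0-b replicate 1 and -0.06 in replicate 2. The bamboo libraries lay at -0.16 (replicate 2) and -0.13 (replicate 3), close to each other, although they stood apart on the first principal component. The family's median log2 fold change, -0.20 with all libraries, was -0.13 without bamboo replicate 2, a move of over 1.5 times, and -0.13 without Col-0-b replicate 3. Leaving out 1 library moved the fold change by over 1.5 times for TUB2, to -0.12 without bamboo replicate 2, and for TUB3 and TUB9, to -0.13 and -0.04 without Col-0-b replicate 3. The fold change of TUB8 ranged from -0.11 to -0.03 when 1 library was left out. All 9 genes stayed below 0 without any single library, in the comparison by which the family was chosen.

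TUB1 (AT1G75780), first known as a beta-tubulin transcript prevalent in roots, had normalized counts of 1489, 1446 and 1763 in Col-0-b and of 1298 and 1261 in bamboo. The bamboo values were close together and the spread lay in Col-0-b. Bamboo stood at 81.7% of the Col-0-b mean, a log2 fold change of -0.29 (SE 0.09). Of the 9 genes TUB1 had the fewest reads, 814 to 1739 a library.

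TUB2 (AT5G62690) and TUB3 (AT5G62700) lie side by side with no other feature between them in the gene table, and they are known to encode the same protein. Their separate counts are uncertain where the authors' counting could have split or dropped reads that match both. TUB2 had 5766, 5684 and 6346 normalized counts in Col-0-b and 4647 and 5443 in bamboo. TUB3 had 5919, 5973 and 7066 in Col-0-b and 5252 and 5609 in bamboo. Their log2 fold changes were -0.24 (SE 0.09) and -0.21 (SE 0.09). Summed, the pair had 12251 ± 1005 in Col-0-b (SD, n = 3) and 10476 ± 815 in bamboo (SD, n = 2), a log2 difference of -0.22. The number of TUB2 reads for each TUB3 read ran from 0.872 to 0.974 over all 8 libraries, and the 3 groups overlapped in it.

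Single amino acid changes in TUB4 (AT5G44340) are known to make Arabidopsis organs grow in a twist. TUB4 had the most even normalized counts of the family in Col-0-b and in bamboo. Its normalized counts were 9411, 9435 and 9515 in Col-0-b, and 8602 and 8646 in bamboo. The gap between the groups was wider than either group's range. The log2 fold change was -0.13 (SE 0.07), so on this scale TUB4 had the tightest libraries but not one of the larger differences. Its coefficient of variation in Col-0-b, 0.867% of the mean CPM, was below the 1.06% that counting reads alone would give at its depth. In CPM it was 5.46% in Col-0 and 2.36% in bamboo, and other members were more even there.

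TUB5 (AT1G20010) had 3067, 2975 and 3321 normalized counts in Col-0-b and 2788 and 2654 in bamboo, without overlap (log2 fold change -0.20, SE 0.08). TUB7 (AT2G29550) had 3042, 3085 and 3361 in Col-0-b and 2436 and 2757 in bamboo. With a log2 fold change of -0.29 (SE 0.08), TUB7 had, with TUB1, the largest difference of the family. Bamboo replicate 2 was lower than bamboo replicate 3 for TUB7, as for TUB2, with distances from the Col-0-b mean of -0.37 and -0.20 for TUB7 and of -0.35 and -0.12 for TUB2. For TUB1, TUB5, TUB8 and TUB9 bamboo replicate 3 was the lower one.

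TUB6 (AT5G12250), a common reference transcript in quantitative PCR of Arabidopsis, had 4973, 4737 and 5004 normalized counts in Col-0-b and 4650 and 4683 in bamboo (log2 fold change -0.07, SE 0.07). TUB9 (AT4G20890), known for its expression in pollen, had 2932, 2926 and 3129 against 2869 and 2829 (log2 fold change -0.07, SE 0.07). TUB8 (AT5G23860) had 2682, 2460 and 2749 against 2576 and 2462 (log2 fold change -0.06, SE 0.08). For these 3 genes bamboo stood at 95.1% to 95.8% of the Col-0-b mean and the difference was about as large as its standard error. Only in TUB8 did the normalized counts of the groups overlap; in CPM, TUB6 overlapped as well.

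Ordered by the size of the difference, TUB1, TUB7, TUB2, TUB3 and TUB5 had log2 fold changes of -0.20 or below, TUB4 lay at -0.13, and TUB6, TUB8 and TUB9 at -0.07 or nearer to 0. Of all tested genes, 7.47% had a more negative value than TUB1, 23.7% than TUB4 and 36.8% than TUB8. Whether the genes differ from one another in this respect was not tested.

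The largest part of the family's reads came from TUB4 in every library. TUB4 took 22.5% to 24.4% of them in Col-0-b, 23.8% to 24.5% in bamboo and 23.7% to 24.9% in Col-0. TUB2 and TUB3 together took 28.2% to 31.7% over the 8 libraries. TUB6 took 11.8% to 12.7% in Col-0-b, 12.9% to 13.2% in bamboo and 13.4% to 13.5% in Col-0, so bamboo lay between the wild-type sets. TUB1 took 3.73% to 4.17% in Col-0-b, 3.47% to 3.7% in bamboo and 2.64% to 3.17% in Col-0. TUB8 took 6.35% to 6.83% in Col-0-b, 6.77% to 7.34% in bamboo and 5.15% to 5.36% in Col-0, lowest in Col-0 and overlapping between the others. These are shares of reads, not scaled by transcript length, and give no order of expression between genes. Ranked by CPM, TUB4, TUB3, TUB2 and TUB6 came first and TUB8 and TUB1 last in all 3 groups. In Col-0, neighbours in this rank did not overlap except TUB9 with TUB5 and TUB5 with TUB7, and TUB9 and TUB7 traded places in Col-0-b.

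**Figure D2:**
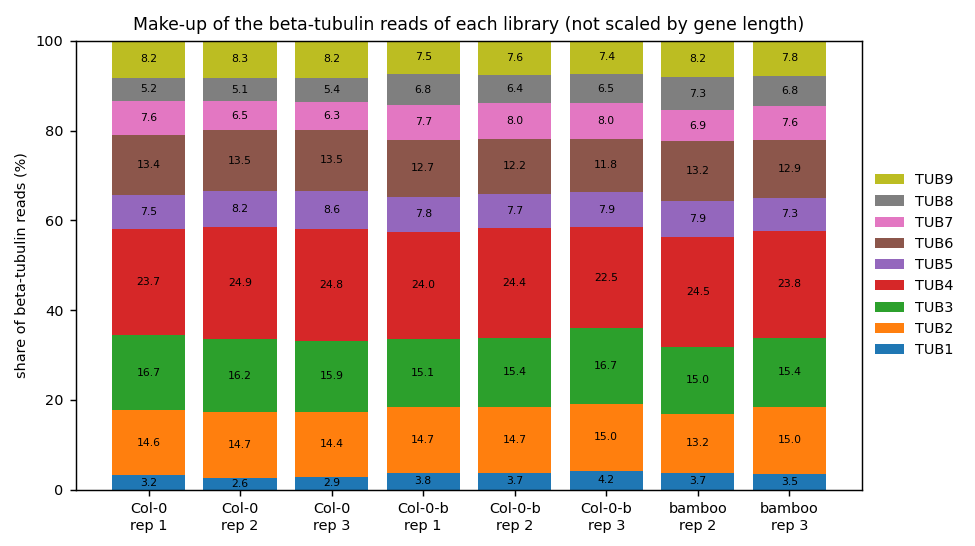
Each bar is a library and its coloured parts are the percentages of all beta-tubulin reads taken by each gene, not scaled by gene length. TUB4 takes 22.5% to 24.9% in every library, and the TUB1 part is thicker in Col-0-b, at 3.73% to 4.17%, than in Col-0, at 2.64% to 3.17%.

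The second wild-type set shows how far beta-tubulin levels range between sets of wild-type roots. Col-0 was read in another table, so its levels were set beside the others with no test. Summed over the family, Col-0 had 1953, 1966 and 2076 CPM, Col-0-b 1895, 1852 and 2038, and bamboo 1656 and 1763. The wild-type sets overlapped, and both bamboo libraries lay below all 6 wild-type libraries. Beta-tubulin reads thus made up 0.185% to 0.208% of all reads in wild-type roots and 0.166% to 0.176% in bamboo.

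Gene by gene the wild-type sets agreed less. TUB1 had 61.9, 51.8 and 59.7 CPM in Col-0 and 71.8, 69.1 and 85.1 in Col-0-b, so the wild types did not overlap, and bamboo, at 61.2 in both libraries, lay within the range of Col-0. TUB8 was also lower in Col-0 (101 to 111 CPM) than in Col-0-b (118 to 133), and bamboo, at 121 and 119, lay above Col-0. TUB4, TUB6 and TUB9 were higher in Col-0 than in every Col-0-b library, TUB9 with 160, 163 and 171 CPM against 141, 140 and 151. The other 4 genes overlapped between the wild-type sets. Of all tested genes, 26.9% were higher in Col-0 without overlap and 26.0% lower, so a gap between these sets was common. For TUB2, TUB3, TUB4, TUB5, TUB6 and TUB9 both bamboo libraries lay below all Col-0 libraries, as they did for 28.6% of all tested genes. The mean of TUB1 was 1.3 times as high in Col-0-b as in Col-0, a wider step than that from Col-0-b to bamboo.

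**Figure D3:**
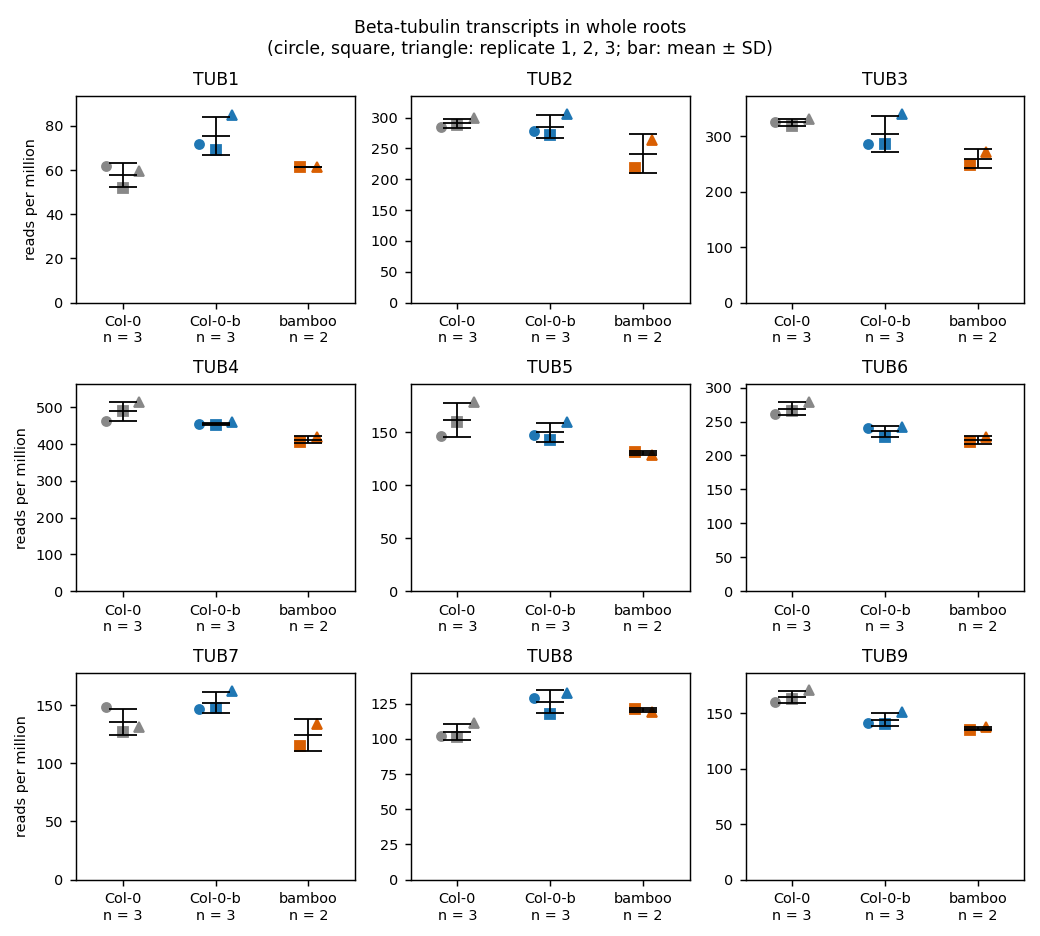
Each panel is a beta-tubulin gene; the vertical axis is CPM, points are libraries and bars give the mean ± SD of each group. TUB1 in bamboo, at 61.2 in both libraries, lies within the Col-0 points and below the Col-0-b points, while TUB4 in bamboo, at 406 and 419, lies below both wild-type sets.

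The spread between replicates was compared with what counting reads alone would give. In Col-0 the coefficient of variation ran from 1.89% for TUB3 to 9.89% for TUB5, and in Col-0-b from 0.867% for TUB4 to 11.3% for TUB1, where counting alone would give 1.05% to 3.06%. All 9 genes varied more than counting error in Col-0, 8 of 9 in Col-0-b and 5 of 9 in bamboo. The spread of the 2 bamboo libraries was below counting error for TUB1, TUB5, TUB8 and TUB9. TUB1, TUB6, TUB7 and TUB9 overlap other annotated features, whose own levels reached at most 2.91, 25.8, 13.8 and 0.0439 CPM. Reads within these overlaps could not be placed with certainty, and how many there were is not known.

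Alpha-tubulins, the partners of beta-tubulin in the dimer, had negative values in all 6 genes, with a median log2 fold change of -0.20 in bamboo. None of the 6 was called by limma at an adjusted p of 0.05, where 0.133% of tested genes were called, 0.0641% as lower and 0.0691% as higher. None was called by edgeR (0.138% of tested genes) or DESeq2 (1.66%) either. At an unadjusted limma p under 0.05, 4 were lower, against 8.21% of tested genes. For all 6 both bamboo libraries lay below all Col-0-b libraries, which was so for 17.5% of tested genes. TUA4 and TUA2, known to encode the same protein, had the largest differences. TUA4 had 14482, 14599 and 16782 normalized counts in Col-0-b and 11858 and 13009 in bamboo (log2 fold change -0.30 with an SE of 0.09 and a limma adjusted p of 0.152). TUA2 followed at -0.27, with an SE of 0.08 and a limma adjusted p of 0.153. As with the beta-tubulin sum, Col-0-b replicate 3 was the highest and bamboo replicate 2 the lowest library for both.

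TUA6, whose protein is widely used as a fluorescent microtubule marker, had 16996, 16633 and 17653 normalized counts in Col-0-b and 14465 and 15236 in bamboo (log2 fold change -0.20 with an SE of 0.07 and a limma adjusted p of 0.21). TUA3 and TUA5, neighbouring genes that also encode the same protein, had log2 fold changes of -0.06 and -0.19, and TUA1, known for pollen, of -0.09. Reads that match both genes of such a pair make their separate values uncertain. The alpha-tubulin sum was 53091 ± 2450 in Col-0-b (SD, n = 3) and 45401 ± 2101 in bamboo (SD, n = 2), a log2 difference of -0.23.

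Set against each other, the sums of the partners differed more between the wild-type sets than between bamboo and Col-0-b. There were 0.757, 0.752 and 0.756 beta-tubulin reads for each alpha-tubulin read in Col-0-b and 0.8 and 0.775 in bamboo, without overlap. In Col-0 there were 0.996, 1.07 and 1.11. The alpha-tubulin sum was 1961, 1838 and 1866 CPM in Col-0, below bamboo at 2070 and 2274 and below Col-0-b at 2503, 2462 and 2697. Bamboo was thus lowest of the 3 groups in beta-tubulin and lay between the wild-type sets in alpha-tubulin.

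**Figure D4:**
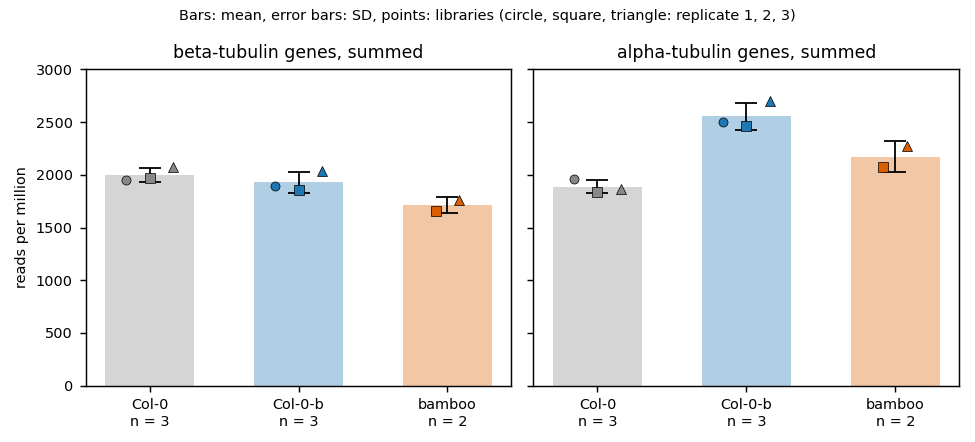
Bars give the mean and error bars the SD of summed CPM for the 9 beta-tubulin and the 6 alpha-tubulin genes in each group, with a point for each library. Beta-tubulin is lowest in bamboo, at 1656 and 1763, while alpha-tubulin in bamboo, at 2070 and 2274, lies between Col-0 and Col-0-b.

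Beyond the dimer, 8 lists of related genes, alpha-tubulins included, held 102 genes, of which 98 were tested. None was called by limma, edgeR or DESeq2, and the smallest limma adjusted p was 0.135. At an unadjusted p under 0.05, limma had 23 of the 98 lower and 3 higher, against 8.21% and 8.6% of all tested genes. Without bamboo replicate 3, limma called 17 of the 98, where 9.66% of tested genes were called, and with the replicate number as a block it called 4, where 4.4% were. These lists were drawn up with results of the same libraries known, so the counts are a description.

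Genes of the gamma-tubulin complex, which starts microtubules, had negative values in 10 of 10 tested members (median -0.15). The gamma-tubulins TUBG1 and TUBG2 (AT5G05620) had log2 fold changes of -0.27 (SE 0.10) and -0.04 (SE 0.09). The list's most read members were AT3G43610 at -0.21 and emb1427 at -0.21, and AT1G20570, with a mean of 85.8 normalized counts in Col-0-b and 51.3 in bamboo, stood at -0.77 (SE 0.23, limma adjusted p = 0.154). The list's median was -0.05 without bamboo replicate 2 and -0.27 without bamboo replicate 3.

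The tubulin-folding list was split, with 12 of 20 values negative and a median of -0.13. TCP-1, the alpha subunit of the chaperonin that folds tubulin, had a log2 fold change of -0.20 (SE 0.08) and AT5G20890 of -0.14 (SE 0.08). The prefoldin subunits PFD1 and AIP3, also known as prefoldin 4, had positive values of 0.38 each (limma adjusted p = 0.156 and 0.153). PFD1 had 309, 352 and 305 normalized counts in Col-0-b and 460 and 380 in bamboo, without overlap. The cofactors TTN1 and PFI had values of -0.24 and -0.18, while KIS, EMB2804 and POR stood at 0.07, 0.06 and 0.03. Without bamboo replicate 2 the list's median was -0.03.

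Proteins that bind microtubules had 11 of 18 values positive and a median of 0.01, with -0.0038 without Col-0-b replicate 2 and 0.06 without bamboo replicate 2. MOR1, which speeds the growth of microtubule ends, had a log2 fold change of -0.18 (SE 0.10). CLASP, which holds microtubules to the cell cortex, stood at -0.26 (SE 0.08), and SPR1, a protein of growing plus ends, at -0.08 (SE 0.07). On the positive side, MAP65-5, with few reads, had the largest value of the list, 0.71 (SE 0.28). MAP65-4 and MAP65-1 stood at 0.18 (SE 0.10) and 0.15 (SE 0.09). The augmin complex, which branches new microtubules from old ones, had 5 of 8 negative values (median -0.10), with AUG6 at -0.20 and AUG5 at 0.01.

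Cellulose synthase genes and their partners had negative values in 12 of 12, and their median was -0.10. The partners GH9A1, also known as KOR1, and COB lay close to 0, at -0.0024 and -0.01 (SE 0.07 each). For 5 of the 12 both bamboo libraries lay below all Col-0-b libraries, which was so for 17.5% of tested genes. CESA1 and CEV1, also known as CESA3, which make cellulose of the primary wall, had log2 fold changes of -0.21 (SE 0.08) and -0.11 (SE 0.07). CSI1, which links the synthase complex to microtubules, had 5388, 5186 and 5873 normalized counts in Col-0-b and 3976 and 4903 in bamboo (log2 fold change -0.31 with an SE of 0.09 and a limma adjusted p of 0.159). The 3 secondary-wall synthases CESA4, IRX3 and IRX1 stood at -0.05, -0.09 and -0.10. The list's median was -0.06 without bamboo replicate 2 and -0.05 without Col-0-b replicate 3.

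Actins, the other main filament of the cytoskeleton, had 5 of 7 tested values negative (median -0.08). ACT2 and ACT8, the most read vegetative actins, stood at -0.01 (SE 0.08) and 0.05 (SE 0.07), and ACT7 at -0.08. ACT1 had the most negative value of the list, -0.31 with an SE of 0.09 and a limma adjusted p of 0.135. ACT4, with few reads, stood at 0.55 (SE 0.30). Without Col-0-b replicate 3 the list's median was -0.05.

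**Figure D5:**
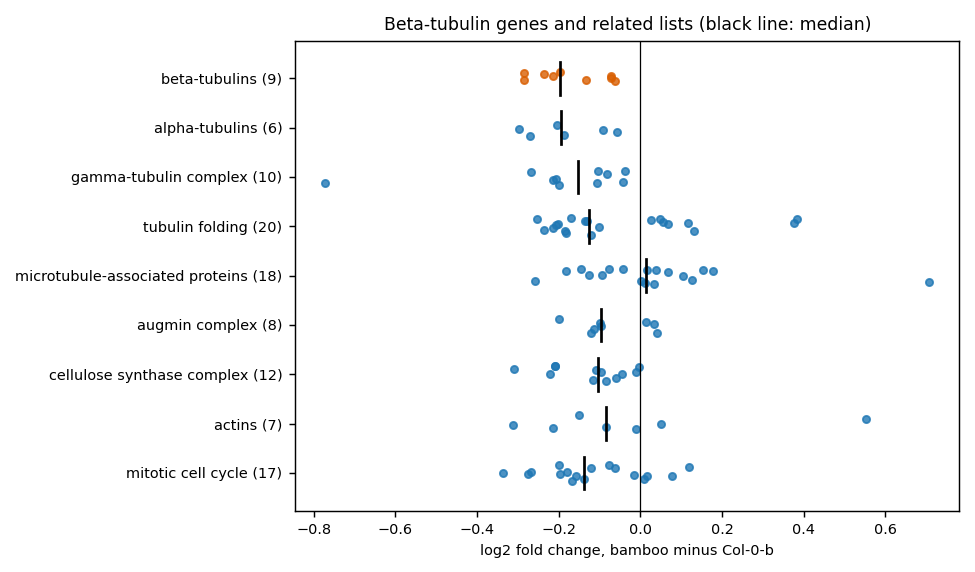
Each point is a tested gene, placed by its log2 fold change in bamboo minus Col-0-b; rows are gene lists with the number of tested genes, and black lines are medians. All 9 beta-tubulin and all 6 alpha-tubulin points lie left of 0, with medians of -0.20 each, while the microtubule-associated proteins have a median of 0.01.

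Mitotic genes, which mark dividing cells, had negative values in 13 of 17, with a median of -0.14 that was -0.05 without bamboo replicate 2. The most read were CDKB2;1 at -0.06 and CDC20.1 at -0.16. The list's summed level was 282 to 299 CPM in Col-0-b and 246 to 285 in bamboo, and 342 to 367 in Col-0. Bamboo replicate 2 was the lower bamboo library, and the groups overlapped in the other. The root markers had 6 negative and 4 positive values, with a median of -0.14, and the median was -0.21 without Col-0-b replicate 1, -0.03 without Col-0-b replicate 3 and -0.08 without bamboo replicate 2. Among them, EIR1 (PIN2), an auxin carrier of the root tip, had a log2 fold change of -0.58 (SE 0.17), PLT2, a regulator of the root meristem, of -0.39, and CASP1, a Casparian strip protein of the endodermis, of 0.21 (SE 0.08). None of the root markers was called by limma (0.133% of tested genes) or edgeR (0.138%). DESeq2 called EIR1, where 1.66% of tested genes were called. With the replicate block, limma called EIR1 and the shoot markers CAB1 and RBCS1A, where 4.4% of tested genes were called. That block gave the same fold changes as leaving out Col-0-b replicate 1. CAB1 had 452, 90 and 90 normalized counts in Col-0-b replicates 1, 2 and 3, and RBCS1A had 565, 224 and 200. Without the block, their limma adjusted p was 0.942 and 0.976. The root marker median was -0.18 without bamboo replicate 3. The most read shoot markers, LHCB3 and LHCA4 of the chloroplast antenna, stood at 0.02 each. The shoot marker median, 0.05, was 0.37 without Col-0-b replicate 1, -0.07 without Col-0-b replicate 2 and -0.16 without Col-0-b replicate 3. The part of cell-type make-up in the tubulin values was not tested.

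The tested genes outside the family whose profile over the 5 bamboo and Col-0-b libraries lay nearest to the mean profile of the 9 beta-tubulins were RHD1, BAT1, AT1G12850, AT4G38500 and AT3G11630. Their root mean square distance from it was 0.0058 to 0.015 on the log2 scale, among 10128 genes of above-median level. RHD1, an epimerase that makes UDP-galactose, lay at -0.19 and -0.17 in the bamboo libraries and at 0.09 in Col-0-b replicate 3, where the beta-tubulin mean lay at -0.19, -0.16 and 0.09. Among the tubulins, TUA6 (0.03), TUB5 (0.04) and TUA5 (0.04) lay nearest to that mean.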

How the data were processed

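Per the labels' protocols, sequencing was single-end, from libraries of a stranded Illumina mRNA kit. The build TAIR10, the aligner STAR 2.7.2a, the trimmer Trimmomatic and, for counting, featureCounts from Subread 1.6.5 are named in the submitters' processing notes. Whether counting used strand is not stated there, and 4 of the 9 genes overlap another annotated feature. For Col-0, whole-number counts were deposited. The values deposited for Col-0-b and bamboo are a normalized signal: library size factors, of a method not given, had been applied to the counts. Each value was a whole multiple of 1 step per library within 0.01 (100% of values), so reads were recovered, also for Col-0-b replicate 1, whose step lies close to 1. The columns named only WT, beside bamboo, were taken as Col-0-b and the col columns as Col-0, a reading the names do not settle. None of the col columns was identical to the recovered reads of a Col-0-b or bamboo library. Another 6 columns, whose names do not settle their line, were not used.

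The 20274 genes that reached a normalized count of 10 in 2 or more libraries entered the test as log2(normalized count + 1) with limma 3.58.1 in R 4.3.3 (trended, robust, with no covariate besides group), adjusted by Benjamini-Hochberg at 0.05. All 9 beta-tubulin genes passed this filter. On that scale, a fold change is the bamboo mean less the Col-0-b mean. edgeR 4.0.16 and DESeq2 1.42.0 were run on the recovered reads. The fit was tested on simulated counts whose spread was set and not taken from these libraries. It called 59.7% of changes of 1.5 times and 100% of those of 2 and 4 times, and 3.89% of its calls were false. Smaller changes, such as those of the beta-tubulin genes, were not simulated. Members and lists were chosen with earlier results of these data known. Named were all members, the 2 most read genes of each list, called list members (there were none) and the 5 genes nearest in profile; the other genes were named after their values were seen. A RefSeq table of TAIR10.1 gave symbols (37051 of 37336 features); several chaperonin and gamma-tubulin complex identifiers have no symbol there and are given as identifiers. Levels per coding length, protein sequences and promoters were planned and were not analysed here.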

Additional observations from a re-analysis of the deposited data

How the results depend on the processing

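The family's median log2 fold change of -0.20 and its summed difference of -0.17 moved by less than the spread between libraries with a pseudocount of 8, no low-value filter (median only), TMM-rescaled values, edgeR or DESeq2 on recovered reads (median only), a replicate block and CPM scaling, which was added after seeing the data. Leaving out each library in turn gave medians from -0.23 to -0.13 and sums from -0.19 to -0.13. All 99 fold changes of single beta-tubulin genes under the 11 other fits were below 0, from -0.37 to -0.03. These fits reuse the libraries by which the family was chosen, so the shared sign is a description and supports nothing. The replicate block gave the same fold changes as leaving out Col-0-b replicate 1, because no bamboo library carries that number and the block fits it exactly. The block fit thus had only replicates 2 and 3 of each group to take the spread from, which limits its counts of genes called. The counts of genes called, 14 higher and 13 lower, became 46 and 29 with no filter, which tests more genes, and 188 and 115 with DESeq2. Leaving out 1 library gave 6 to 894 higher and 4 to 1052 lower, the most without bamboo replicate 3, a fit that takes the spread of the remaining bamboo library from Col-0-b. Leaving out 1 library, limma called 0 to 17 members of the 8 related lists, 17 without bamboo replicate 3, where 9.66% of all tested genes were called. Bamboo and Col-0-b share only replicate numbers 2 and 3, whose differences correlated at 0.08 over genes. With so few shared numbers, whether they pair the libraries cannot be settled. With the replicate block 513 genes were called higher and 379 lower, 4.4% of those tested, with 4 of the 98 tested list members among them (TUA2, TUA4, AT3G02530 and CSI1); the family median was -0.21 and the summed difference -0.18. Why the counts move was not examined; the cause was not tested. The order of CPM in Col-0 kept 7 to 9 of 9 ranks when 1 Col-0 library was left out and 7 in Col-0-b; it could not be scaled by coding length.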
